A study of Mus musculus with 5 samples.

Results

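The cyclic nucleotide phosphodiesterases described here are Pde1a, Pde1b, Pde1c, Pde2a, Pde4a, Pde4b, Pde4d, Pde7b, Pde8b and Pde10a, 10 gene names chosen by symbol from a table of 15093 genes. They take 11 entries of the table, because Pde4d was listed under 2 identifiers, ENSMUSG00000021699 and ENSMUSG00000074661. The second of these was absent from the gene name table used here, which held the other 10 identifiers, and reads of 1 gene may have been split between the entries. The values come from translating ribosome affinity purification (TRAP), in which a tagged ribosomal protein is pulled down with the mRNA it carries. Adult Drd2-TRAP mice, a cross of a Drd2-Cre line with a line that expresses eGFP-tagged Rpl10a after Cre recombination, were used for every library, so tagging follows the Drd2 promoter and is not limited to 1 cell class of the punch. The fear conditioned group had 3 libraries (replicates 2, 3 and 4), made from brains taken 2 h after the session. The home cage group had 2 libraries (replicates 6 and 7). Each library pooled 1 mm punches of the central amygdala (CeA) from 3 animals, and neither the sex nor the individual mice of a pool are named in the labels. The labels call the controls home cage and place the collection after extinction, whereas the study's own account is of collection after fear conditioning and of controls that heard the tone with no shock, and the label names are kept here.

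Phosphodiesterases hydrolyse the second messengers cAMP and cGMP and so end the signals that receptors start through adenylyl or guanylyl cyclases. The PDE1 enzymes are switched on by calcium and calmodulin and act on both nucleotides. PDE2A is stimulated by cGMP, which lets one nucleotide control the breakdown of the other. The PDE4, PDE7 and PDE8 enzymes are specific for cAMP, and PDE10A acts on both. PDE10A and PDE1B are known as abundant enzymes of striatal medium spiny neurons, where adenosine and dopamine receptors push cAMP in opposite directions.

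The libraries held between 19605318 and 27937520 reads on genes, recovered from the deposited values in counts per 1000000 of an effective library size (CPM). Across genes, pairs of fear conditioned libraries had a Pearson's r (log2 values) of 0.976 to 0.984 and the home cage pair one of 0.746, so the home cage libraries stood apart from each other. With the fear conditioned libraries, home cage replicate 6 had an r of 0.894 and replicate 7 one of 0.790 to 0.808. Each home cage library was thus closer to the fear conditioned libraries than to the other home cage library. The home cage libraries also had more genes at 0, 976 and 2681 against 349, 263 and 159 in the fear conditioned libraries. Xist, the RNA of the inactive X chromosome of females, had 666 and 1774 reads in the home cage libraries and 0, 3 and 4 in the fear conditioned ones, so sex and condition cannot be told apart in these pools. The defining genes of D2 striatal projection neurons were present in every library, with a sum over 14 listed genes of 24747 to 27744 CPM in the fear conditioned and 9748 to 15983 CPM in the home cage libraries. All 14 had a log2 fold change above 0 and 10 did not overlap between the groups, against 20.2% of all genes. The choroid plexus list summed to 58.1 to 111 CPM and 1017 to 1420 CPM, with Kcnj13, Folr1, Aqp1, Otx2 and Slc4a5 each at 0 in at least 1 library. The sums were 618 to 740.2 and 1101 to 1483 CPM for 8 astrocyte genes, 1287 to 2713 and 2821 to 5249 CPM for 9 oligodendrocyte genes, 181 to 342 and 594 to 809 CPM for 10 pallial glutamatergic genes (Rspo2 at 0 in home cage replicate 7), and 14.3 to 42.6 and 81.5 to 86.8 CPM for 8 endothelial and mural genes (Tek at 0 in the home cage libraries). They were 141 to 204 and 270.5 to 301 CPM for 8 interneuron genes, and 185 to 336 and 337 to 590.2 CPM for 9 genes of CeA populations (Tac2 at 0 in home cage replicate 7). The sums of 8 microglial genes overlapped, with a lowest value of 54.1 CPM in a fear conditioned and a highest of 112 CPM in a home cage library. The number of tested genes lower in every fear conditioned library was 5 of 8 for astrocytes, 4 of 9 for oligodendrocytes, 5 of 10 for pallial neurons, 2 of 7 for endothelial and mural cells, 4 of 9 for CeA populations, 2 of 8 for microglia, 4 of 7 for the choroid plexus and 1 of 8 for interneurons, against 16.1% of all genes. Those higher in every one were 2 pallial, 2 microglial, 1 endothelial or mural and 1 CeA gene. The part of these differences in the phosphodiesterase values was not tested. Fewer cells of a type and less RNA per cell cannot be told apart in pooled RNA.

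The sequences at the starts of 3 genes are shown for the member with the highest level (Pde1b), for the member that varied most between libraries (Pde10a) and for a member higher in every fear conditioned library (Pde7b). They are from RefSeq (GRCm38.p6), 250 bases before and 50 bases after the annotated start that lies farthest upstream, 5′ to 3′ on the strand of the gene, with the 50 bases from the start on in capitals.
Pde1b, chr15:103502784-103503083, plus strand: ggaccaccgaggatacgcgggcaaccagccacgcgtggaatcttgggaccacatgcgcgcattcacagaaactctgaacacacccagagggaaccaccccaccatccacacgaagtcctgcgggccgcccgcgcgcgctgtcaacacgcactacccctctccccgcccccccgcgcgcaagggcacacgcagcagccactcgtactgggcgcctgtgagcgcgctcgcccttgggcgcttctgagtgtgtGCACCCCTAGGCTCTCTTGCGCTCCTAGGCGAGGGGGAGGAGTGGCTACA
Pde10a, chr17:8801495-8801794, plus strand: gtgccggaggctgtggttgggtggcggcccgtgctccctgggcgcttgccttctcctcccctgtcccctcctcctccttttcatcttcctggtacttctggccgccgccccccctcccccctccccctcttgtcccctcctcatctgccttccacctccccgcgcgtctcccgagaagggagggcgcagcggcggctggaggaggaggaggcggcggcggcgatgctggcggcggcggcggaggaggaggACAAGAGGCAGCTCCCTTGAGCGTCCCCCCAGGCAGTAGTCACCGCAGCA
Pde7b, chr10:20548279-20548578, minus strand: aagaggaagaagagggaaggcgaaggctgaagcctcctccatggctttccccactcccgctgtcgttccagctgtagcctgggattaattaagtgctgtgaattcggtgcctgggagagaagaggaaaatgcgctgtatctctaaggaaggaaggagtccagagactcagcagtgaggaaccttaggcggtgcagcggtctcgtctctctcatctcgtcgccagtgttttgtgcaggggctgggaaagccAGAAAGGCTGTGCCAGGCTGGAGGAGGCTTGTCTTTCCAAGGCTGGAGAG

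The GC content of these windows was 67.0% in Pde1b, 71.3% in Pde10a and 55.7% in Pde7b, against a median of 52.7% over 32851 windows of the same length, and they held 28, 23 and 10 CpG against a median of 7. The table had 31 windows for the 10 members, 3 of them for Pde1b, 2 for Pde10a and 1 for Pde7b. Over all 31 windows the medians were 54.3% GC and 7 CpG, so the 3 windows shown do not stand for the family. The cAMP response element, at which CREB binds, was searched as the full TGACGTCA and as its shorter core, TGACG or CGTCA by strand, which the full element contains. The full element was in 0 of the 31 windows and in 1.79% of all windows. The core was in 5 of the 31 (16.1%) and in 20.8% of all windows, so the members' share was not above that of genes in general. The 5 matches are shown with the core in capitals, since they are the letters the count rests on.
Pde1a, chr2:80039054-80039078, minus strand: aacttcagccCGTCAttcctcagta
Pde2a, chr7:101450524-101450548, plus strand: ggcgcaggagCGTCAcggctgctgc
Pde4a, chr9:21184041-21184065, plus strand: cacagctcgaCGTCAggctggggag
Pde4b, chr4:102421511-102421535, plus strand: tttggctgcaCGTCAattttctcat
Pde8b, chr13:95223001-95223022, minus strand: aaagttggggTGACGcgcgctg

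Pde1b, the calcium-activated enzyme of striatal neurons, had the highest level of the family per length of gene, followed by Pde2a and Pde10a. Divided by the gene length given in the table, the mean over the 5 libraries was 303 ± 117 CPM per kb (SD, n = 5) for Pde1b, 129 ± 26.6 for Pde2a and 46.3 ± 26.2 for Pde10a. Pde1b lay above between 97.9% and 99.4% of all genes of a library on this scale, and Pde2a above between 95.2% and 97.3%. The lowest Pde1b library (168 CPM per kb) was above the highest Pde2a library (163), and the lowest Pde2a library (102) was above the highest Pde10a library (68.9).

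Below these, the order per length was Pde8b (22.7 ± 6.23 CPM per kb, SD, n = 5), Pde4b (15.6 ± 3.84), Pde1a (13.9 ± 8.69), Pde4a (10.2 ± 2.77), the shorter Pde4d entry (5.90 ± 0.856), Pde7b (2.80 ± 1.25), Pde1c (2.36 ± 1.42) and the longer Pde4d entry (0.800 ± 0.307). Of the neighbours in this lower order, only the shorter Pde4d entry and Pde7b had ranges that did not meet. Pde10a and Pde8b also overlapped, since Pde10a was at 22.9 CPM per kb in fear conditioned replicate 2 and at 13.6 in home cage replicate 6 while Pde8b was between 15.5 and 32.1. Within a library Pde8b was above Pde4b in 5 of 5, but Pde4b was above Pde1a in 4 of 5 and Pde1a above Pde4a in 3 of 5. No member was at 0 in any library, and the fewest reads of any member were 154, for the longer Pde4d entry in fear conditioned replicate 4.

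**Figure D1:**
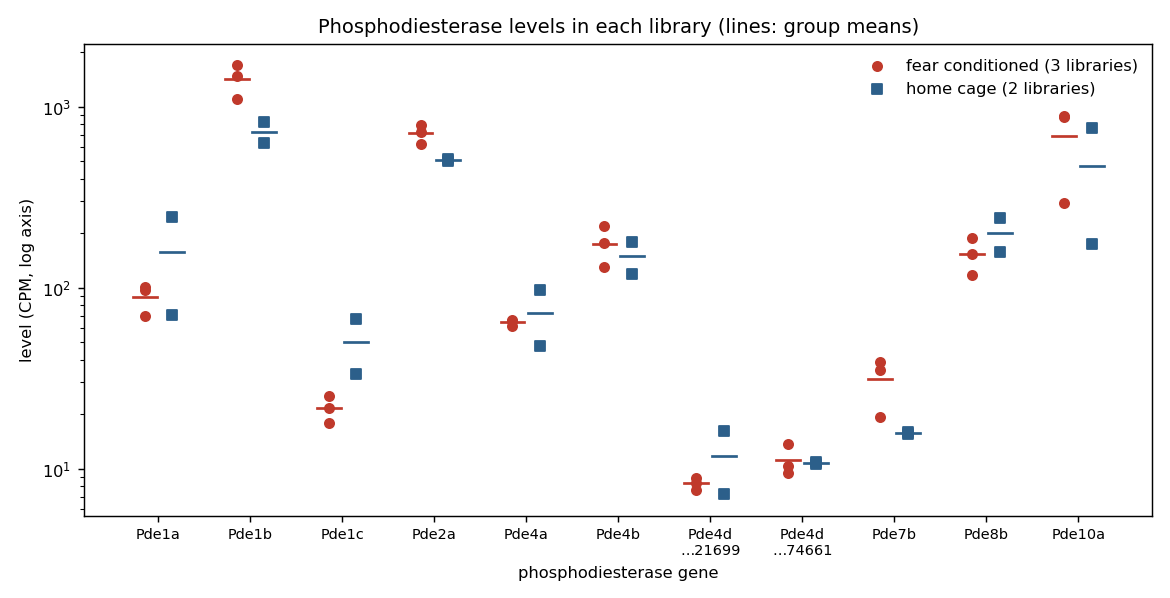
Level of each phosphodiesterase gene in CPM (log axis) in the 3 fear conditioned libraries (circles) and the 2 home cage libraries (squares), with lines at the group means. The circles of Pde1b, Pde2a and Pde7b all lie above both squares and those of Pde1c below, whereas the points of Pde10a spread from 175 to 890.4 CPM with the groups overlapping. The order of the group means of Pde1b, Pde2a and Pde7b turned when libraries were scaled to D2 neuron genes. That scaling shifts all genes of a library by the same amount on the log scale.

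The share of Pde1b in the summed family level was close between libraries of a group. On the CPM scale, it made up 44.1%, 42.1% and 40.8% of the sum in fear conditioned replicates 2, 3 and 4, against 31.1% and 30.3% in home cage replicates 6 and 7. On the scale per length its share was 58.2%, 59.1% and 57.9% against 45.3% and 47.3%. The groups did not overlap on either scale, and the group means were 58.4 ± 0.641% (SD, n = 3) and 46.3 ± 1.42% (SD, n = 2) per length.

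Pde8b, a cAMP-specific enzyme of high affinity, showed the opposite order of shares. It made up 4.71%, 4.68% and 4.26% of the sum on the CPM scale in the fear conditioned pools against 7.75% and 9.04% in the home cage libraries, and 3.09%, 3.27% and 3.00% against 5.61% and 7.01% per length. The shares of Pde2a overlapped, at 21.5% to 25.4% and 23.0% to 27.6% per length. Those of Pde10a ran from 4.56% to 10.01% in the fear conditioned libraries and were 3.66% and 12.8% in the home cage libraries per length. Of the 11 entries, the share was higher in every fear conditioned library for 1 (Pde1b), lower in each for 3 on the CPM scale (Pde1c, Pde8b and the shorter Pde4d entry) and for 4 per length, with the longer Pde4d entry added. Shares of a family have no counterpart over all genes, but the levels of 36.4% of all genes did not overlap between the groups.

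Grouped by substrate, a grouping made with the values in view, the cAMP-specific members Pde4a, Pde4b, Pde4d, Pde7b and Pde8b together made up 9.10%, 8.61% and 8.70% of the family sum per length in the fear conditioned libraries. In the home cage libraries they made up 14.3% and 14.6%. On the CPM scale the values were 14.1%, 13.1% and 12.5% against 20.5% and 18.6%. The members that act on both nucleotides held the remainder, 90.9% to 91.4% against 85.4% and 85.7% per length. A share is bound to the other shares, so the lower cAMP-specific share and the higher Pde1b share are not independent observations.

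**Figure D2:**
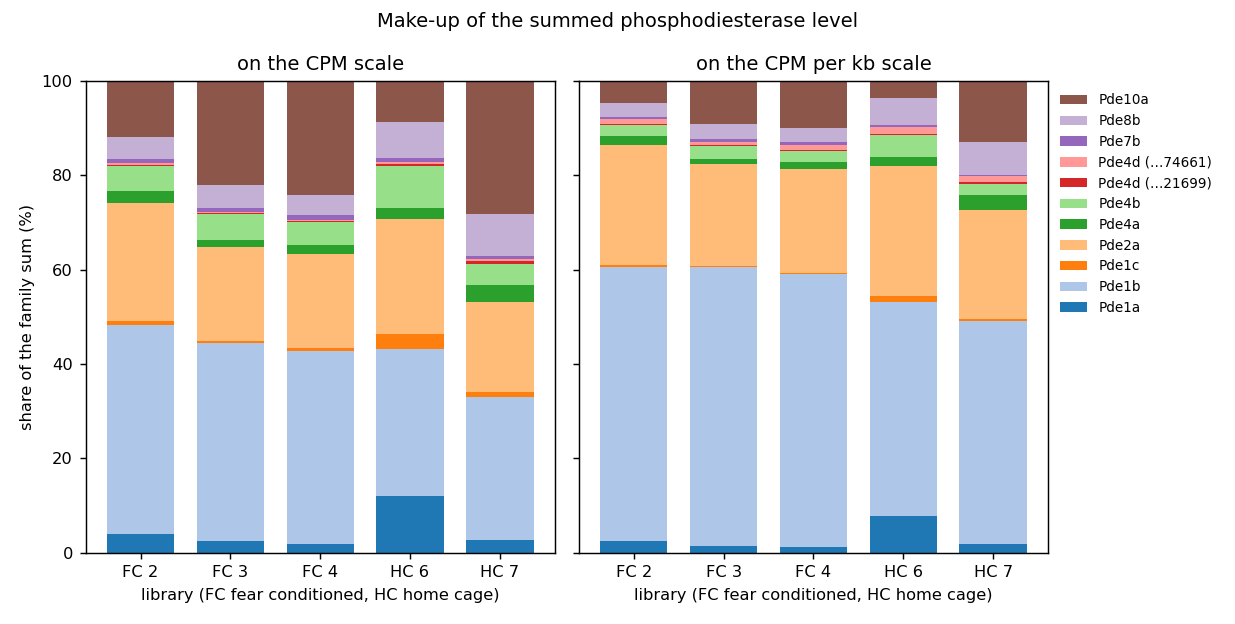
Share of each gene in the summed phosphodiesterase level (percent) in each library, on the CPM scale (left) and after division by gene length (right), with FC for fear conditioned and HC for home cage replicates. Pde1b takes 57.9% to 59.1% per length in the FC bars and 45.3% and 47.3% in the HC bars, while Pde10a takes 3.66% in HC 6 and 12.8% in HC 7.

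The sum over the 11 entries was 2496, 4021 and 3622 CPM in the fear conditioned pools against 2038 and 2701 CPM in the home cage pools. Fear conditioned replicate 2 lay below home cage replicate 7, so the groups overlapped on this scale. They did not overlap per length, at 501, 758 and 676 against 370.3 and 459 CPM per kb, nor after quantile normalization. The ratio of the group means was 1.43, a log2 ratio of 0.51, and the sum is given with no test because its members were chosen. Without Pde1b the log2 ratio was 0.25. Relative to the summed level of the 14 D2 striatal projection neuron genes, a scaling chosen after the values were seen, the family sum was lower in every fear conditioned library, with a log2 ratio of -0.57. Most of that summed level was Penk. Penk had 16076, 13565 and 14950 of 24747, 26713 and 27744 CPM in fear conditioned replicates 2, 3 and 4. In home cage replicates 6 and 7 it had 6098 and 8606 of 9748 and 15983 CPM. The list also holds Adora2a and Gpr6, which the paper reports as upregulated after fear conditioning.

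The question of the comparison was which ribosome-bound mRNAs differ after fear conditioning. With limma and Benjamini-Hochberg adjustment over 13560 genes, 0 of the 11 entries met both thresholds, an adjusted p under 0.05 and a log2 fold change beyond 0.5 in size, as was the case for 0% of all genes. At an unadjusted p under 0.05 there were 2 entries, 1 higher (Pde1b) and 1 lower (Pde1c), against 16.8% of all genes (9.49% higher and 7.32% lower). The groups did not overlap for 4 of 11 entries, 3 higher and 1 lower, against 36.4% of all genes (20.2% higher and 16.1% lower), so the members' count was that of genes in general. The log2 fold change was above 0 for 6 of 11 entries, against 54% of all genes, with a median of 0.03 beside 0.08 over all genes. Scaling to D2 neuron genes, which takes nearly the same amount from every gene, left it above 0 for none of the entries. On that scale 50% of all genes were lower in every fear conditioned library and 3.78% higher. edgeR's quasi-likelihood test on the recovered reads called 0 entries and had 2 at an unadjusted p under 0.05, against 16.6% of all genes, and DESeq2 called 1 of 11 (Pde1b) against 7.96% of all genes.

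Among the PDE1 enzymes, which calcium and calmodulin activate, Pde1b (ENSMUSG00000022489) had 1102, 1693 and 1478 CPM in the fear conditioned pools against 634 and 819 CPM in the home cage pools. Every fear conditioned library was above both home cage libraries. The means were 1424 ± 299 (SD, n = 3) and 726 ± 131 (SD, n = 2), with a log2 fold change of 0.96 (limma, 95% interval 0.27 to 1.65, standard error 0.28, Benjamini-Hochberg adjusted p = 0.217). DESeq2 on the recovered reads gave 0.94 with an adjusted p of 0.0404. Leaving out single libraries kept the log2 fold change between 0.77 and 1.15. Scaled to the D2 neuron genes the order of the means turned, to a difference of -0.12, less than the spread between libraries (p = 0.7, two-sided exact permutation test).

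Pde1c (ENSMUSG00000004347), whose product has similar affinity for both nucleotides, had 25.1, 17.9 and 21.6 CPM in the fear conditioned pools against 66.7 and 33.4 CPM in the home cage pools. It was the 1 entry that was lower in every fear conditioned library. The D2 scaling lowers every gene in the fear conditioned libraries against the home cage ones, so it could not have turned this order. The log2 fold change was -1.11 (limma, 95% interval -2.12 to -0.095, standard error 0.42, Benjamini-Hochberg adjusted p = 0.270). The exact permutation test gave its smallest p, 0.1, as it also did for Pde1b and Pde2a. With home cage replicate 6 left out it was -0.62, and with replicate 7 left out -1.60.

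Pde1a (ENSMUSG00000059173) had 101, 96.7 and 70.0 CPM in the fear conditioned pools against 244 and 70.4 CPM in home cage replicates 6 and 7. Only home cage replicate 6 stood high, and the groups overlapped. The log2 fold change of -0.57 (limma, standard error 0.53, Benjamini-Hochberg adjusted p = 0.602) turned to 0.32 without that library. Within the PDE1 subfamily, Pde1b made up 95.5%, 97.2% and 97.5% of the level per length in the fear conditioned libraries, 83.2% in home cage replicate 6 and 95.3% in replicate 7.

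Pde2a (ENSMUSG00000030653), the cGMP-stimulated enzyme, varied least among the members with high levels, at 621, 797 and 725 CPM in the fear conditioned pools against 499 and 514 CPM in the home cage pools. The groups did not overlap, and the highest of the 5 libraries was 1.60 times the lowest. The log2 fold change was 0.49 (limma, 95% interval -0.038 to 1.01, standard error 0.22, Benjamini-Hochberg adjusted p = 0.324), between 0.41 and 0.58 with single libraries left out. Relative to the D2 neuron genes it was lower in every fear conditioned library, by a log2 difference of -0.59.

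Pde10a (ENSMUSG00000023868), the striatal enzyme that acts on both nucleotides, had 296, 890.4 and 875 CPM in fear conditioned replicates 2, 3 and 4, against 175 and 760.2 CPM in home cage replicates 6 and 7. Fear conditioned replicate 2 and home cage replicate 6 were low and the other 3 libraries high, a split within each group. The ratio of the highest to the lowest library was 5.08, the largest among the 11 entries, with 3.01 inside the fear conditioned group and 4.33 inside the home cage group. The log2 fold change was 0.74 (limma, 95% interval -1.06 to 2.55, standard error 0.74, Benjamini-Hochberg adjusted p = 0.631), -0.31 without home cage replicate 6 and 1.80 without replicate 7. Pde10a is listed with a length of 12932 bases. Over the 834 tested genes longer than 10000 bases, the median difference of fear conditioned replicate 2 from the mean of the other 2 was -0.18 (log2), beside -1.57 for Pde10a, and that of home cage replicate 6 from replicate 7 was 0.12, beside -2.11.

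The PDE4 enzymes, which are specific for cAMP and the target of rolipram, overlapped between the groups in all 4 entries. Pde4b (ENSMUSG00000028525) had 129.7, 219 and 177 CPM in the fear conditioned pools against 179 and 119 CPM in the home cage pools, with a log2 fold change of 0.23 (standard error 0.31, 95% interval -0.53 to 0.99). Pde4a (ENSMUSG00000032177) had 65.9, 61.2 and 65.6 CPM, a narrow range, and 47.3 and 97.6 CPM in the home cage libraries, which lay on either side of it. Its log2 fold change of -0.081 (standard error 0.35) was -0.60 without home cage replicate 6, where 2 of 11 entries (Pde4a and the longer Pde4d entry) were called by limma against 60.5% of all genes, and 0.43 without replicate 7, where 4 (Pde1a, Pde1b, Pde1c and Pde10a) were called against 27.5%.

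The longer Pde4d entry had 8.87, 8.29 and 7.65 CPM in the fear conditioned pools against 7.21 and 16.1 CPM in the home cage pools. The shorter Pde4d entry had 9.39, 10.3 and 13.6 CPM and 10.8 and 10.6 CPM. The log2 fold changes were -0.36 (standard error 0.56) and 0.03 (standard error 0.48). Only the longer entry was high in home cage replicate 7, so the entries did not move together between the home cage libraries. Within the PDE4 subfamily per length, Pde4b took 43.8%, 57.2% and 48.3% in the fear conditioned and 55.5% and 34.1% in the home cage libraries, and Pde4a took 35.5%, 25.5% and 28.6% and 23.4% and 44.5%. Pde4b was the largest entry of the subfamily in every library except home cage replicate 7, where Pde4a was.

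The high-affinity cAMP enzymes Pde7b and Pde8b differed in direction. Pde7b (ENSMUSG00000019990) had 19.3, 38.7 and 35.2 CPM in the fear conditioned pools against 16.0 and 15.6 CPM in the home cage pools, with no overlap. Its log2 fold change was 0.87 (limma, 95% interval -0.19 to 1.94, standard error 0.44, Benjamini-Hochberg adjusted p = 0.370), and -0.17 under the D2 scaling, where the groups overlapped. Fear conditioned replicate 2 lay closer to the home cage libraries than to the other fear conditioned ones. Pde8b (ENSMUSG00000021684) had 118, 188 and 154 CPM and 158 and 244 CPM, which overlapped, with a log2 fold change of -0.38 (standard error 0.31, 95% interval -1.12 to 0.36). Relative to the D2 neuron genes Pde8b was lower in every fear conditioned library, with log2 ratios of -7.72, -7.15 and -7.49 against -5.95 and -6.03.

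**Figure D3:**
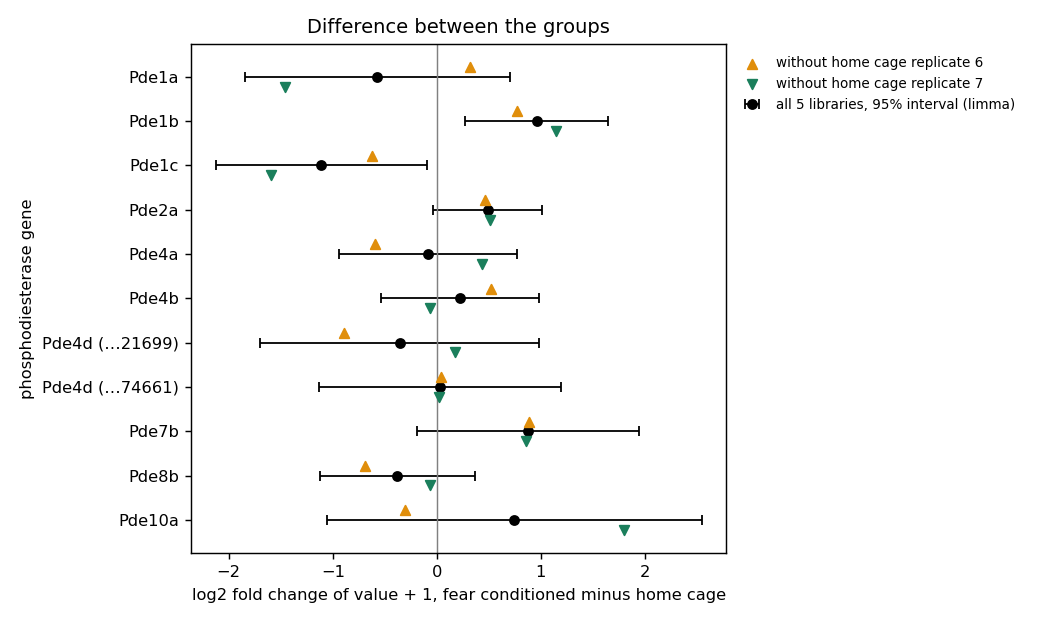
Log2 fold change of value + 1 (fear conditioned minus home cage) for each phosphodiesterase gene, with the 95% interval from limma over all 5 libraries (circles), and the same without home cage replicate 6 (upward triangles) or 7 (downward triangles). The triangles lie on opposite sides of 0 for Pde1a, Pde4a, Pde4b, the longer Pde4d entry and Pde10a, and Pde10a moves from -0.31 to 1.80. These values are on the deposited scale, and those of Pde1b, Pde2a, Pde4b, the shorter Pde4d entry, Pde7b and Pde10a turned when scaled to D2 neuron genes. That scaling lowers the values of all genes by nearly the same amount.

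Scaled to the 14 D2 neuron genes, 7 of the 11 entries were lower in every fear conditioned library and 0 higher, against 50% and 3.78% of all genes. The 7 were Pde1a, Pde1c, Pde2a, Pde4a, both Pde4d entries and Pde8b. Pde1b, Pde4b, Pde7b and Pde10a overlapped between the groups on this scale. For Pde1b the log2 ratios were -4.49, -3.98 and -4.23 in the fear conditioned pools against -3.94 and -4.29 in the home cage libraries. All 7 reached the smallest p of the exact permutation test, 0.1, so this p sets none of them apart. The difference was -1.46 for Pde8b and -1.16 for Pde4a. Relative to Drd2 alone, the differences were -0.19 for Pde1b, -0.24 for Pde7b and -0.41 for Pde10a, each within the spread between libraries.

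**Figure D4:**
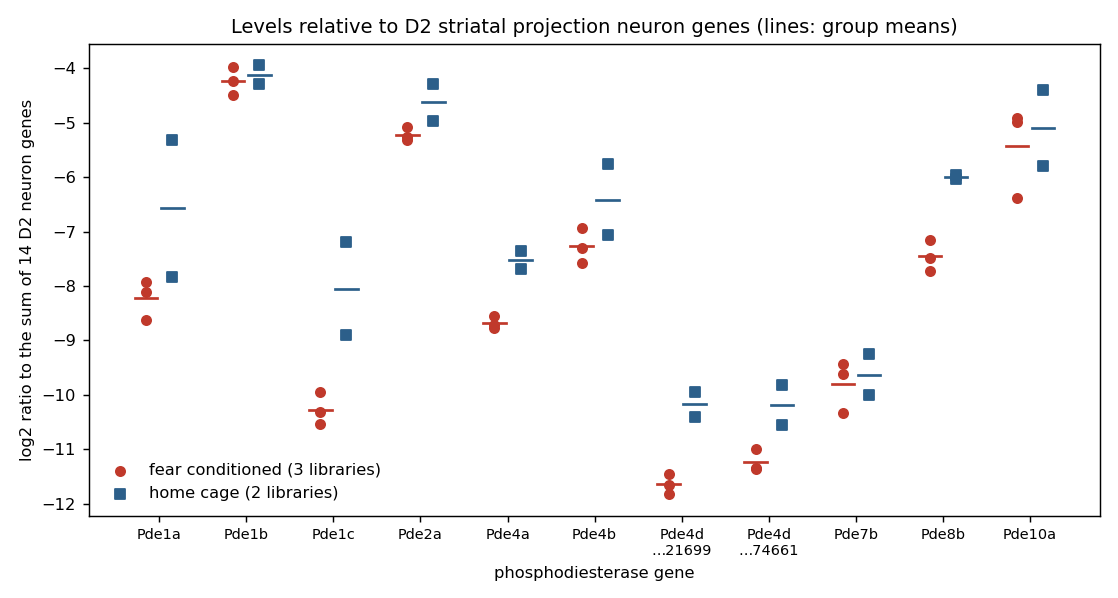
Log2 ratio of each phosphodiesterase gene to the summed level of 14 D2 striatal projection neuron genes in the 3 fear conditioned libraries (circles) and 2 home cage libraries (squares), with lines at the group means. The circles and squares of Pde1b, Pde4b, Pde7b and Pde10a overlap, while all circles of Pde8b (-7.72 to -7.15) lie below both squares (-6.03 and -5.95).

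The genes with profiles most like those of the 3 highest members were sought by the root mean square difference of log2(value + 1) over the 5 libraries, after each gene was centred on its own mean. The nearest gene to Pde1b was Rarb, a retinoic acid receptor that is also on the list of D2 striatal projection neuron genes. Rarb had 152, 250 and 207 CPM in the fear conditioned pools against 87.8 and 119 CPM in the home cage pools. Its distance was 0.036, beside a median of 0.780 over all genes. Tmem87a (0.073) and Ddx20 (0.080) followed. Tmem87a was low, at 1.56, 2.62 and 2.23 CPM in the fear conditioned against 0.401 and 0.633 CPM in the home cage pools. At such levels log2(value + 1) shrinks the differences between libraries, so its nearness to Pde1b is on that scale only. Among the members Pde7b was nearest to Pde1b, at rank 58 of 13559 genes, and Pde1c farthest, at rank 10688. For Pde2a the nearest were Rnf11 (0.039), Hrasls (0.040) and Caprin1 (0.054), beside a median of 0.638. For Pde10a they were Slfn2 (0.120), Gcnt2 (0.204) and Ahr (0.254), beside a median of 1.13, and its nearest fellow member, Pde1b, was at rank 507. Of these, Gcnt2 had the same low libraries at a well measured level, with 32.6, 64.2 and 73.4 CPM and 15.4 and 67.9 CPM, whereas the highest library had 4.16 CPM for Slfn2 and 5.96 CPM for Ahr, and both were at 0 in home cage replicate 6.

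Of 14 other cyclic nucleotide phosphodiesterase genes listed, 7 were in the table and 6 passed the filter. None passed the test, and 1 was higher and 1 lower in every fear conditioned library. Pde6d, which despite its name encodes a chaperone of prenylated proteins, had 181, 174 and 152 CPM in the fear conditioned pools against 85.4 and 55.4 CPM in the home cage pools (log2 fold change 1.28, standard error 0.27, adjusted p = 0.197, limma). Pde7a had 14.6, 17.6 and 15.1 CPM and 18.0 and 116 CPM, so its lower fear conditioned values rest on home cage replicate 7. Pde9a, the cGMP-specific enzyme, had between 9.97 and 32.2 CPM, and the highest library had 8.05 CPM for Pde3b, 2.04 for Pde5a, 11.6 for Pde8a and 11.7 for Pde11a.

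In the enzymes that make the nucleotides, 7 adenylyl cyclases were tested, with 0 calls, 1 higher and 2 lower without overlap and a median log2 fold change of 0.03. Adcy1, a calmodulin-stimulated cyclase, had 86.1, 91.5 and 76.9 CPM in the fear conditioned pools against 195 and 290.0 CPM in the home cage pools (log2 fold change -1.48, standard error 0.26, adjusted p = 0.197, limma). Of the guanylyl cyclases and nitric oxide synthases 7 were tested, with 0 calls, 1 higher and 2 lower and a median of -0.53. Gucy1a2, a subunit of soluble guanylyl cyclase, had 94, 41 and 112 reads in the fear conditioned and 6 and 2 reads in the home cage libraries.

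Among 14 tested cAMP and cGMP effectors (kinases, Epac proteins and channels) 0 were called, 3 were higher and 2 lower without overlap, and the median was 0.52. Popdc3, of a family of cAMP-binding membrane proteins, had 84, 52 and 93 reads in the fear conditioned pools against 0 in each home cage pool, at least 22.7-fold higher against a floor of 3 reads per library, in the home cage libraries that had more genes at 0 in all. Of 18 tested substrates, anchors and partners 0 were called, 4 were higher and 4 lower, and the median was 0.16. Akap13, an anchoring protein of protein kinase A, had 10.4, 5.41 and 4.97 CPM in the fear conditioned and 27.2 and 73.5 CPM in the home cage libraries. Akap11 had 92.8, 114 and 134 CPM and 177 and 205 CPM. The share of tested genes whose groups did not overlap was 33.3% in the other phosphodiesterases, 42.9% in both cyclase lists, 35.7% in the effectors and 44.4% in the substrates and anchors, beside 36.4% of all genes.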

How the data were processed

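The authors sequenced RNA bound to eGFP-tagged ribosomes and analysed the reads with Tuxedo and DESeq software per the methods. The submitters' processing notes name DESeq and the build mm8, and the aligner, annotation, versions and use of strand are not given in the sources used here. The deposited signal is a normalized count per 1000000 of an effective library size (CPM) for each gene and library, with a gene length. Every listed gene exceeds 1 CPM in a library. Within a library, 100% of values were whole multiples of 1 read (within 0.01), and these reads were used in count tests. A floor of 3 reads is 0.100 to 0.158 CPM and covers counting error only.

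The members and lists were chosen with earlier results of these data known. Groups followed the labels, and since separate pools are the replicates, p-values measure the spread between pools. limma 3.58.1 (eBayes with a trend) was fitted on log2(value + 1) to the 13560 genes with a mean of at least 1, which held all 11 member entries. Fold changes on this scale understate low genes. A call required a log2 fold change beyond 0.5 in size, with adjusted p below 0.05. The exact permutation test covers 10 arrangements of 3 and 2 libraries, with a smallest p of 0.1. Alternatives were a pseudocount of 0.1, other filters, quantile normalization, edgeR 4.0.16, DESeq2 1.42.0, and each library left out. Scaling to Drd2 or to 14 D2 neuron genes was added after the values were seen. Fits were tested on simulated data with large changes and the same spread in both groups. In the real libraries the biological coefficient of variation (relative spread between libraries beyond counting error) was 0.25 in the fear conditioned and 1.24 in the home cage group. The simulation therefore does not show how the fits behave with such unequal spreads or with smaller changes. Genes named beside the members were those nearest in profile, and up to 3 per pathway list that did not overlap between groups at an unadjusted p under 0.05. Pde7a, Pde9a and the other phosphodiesterases were named for completeness after their values were seen. R 4.3.3 and Python 3.11.15 were used. 9 gene lengths below 0 were left out of values per length. Protein sequences were not used here. Values of some listed genes are not reported here.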

Additional observations from a re-analysis of the deposited data

How the results depend on the processing

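No paired analysis was possible because the replicate numbers of the groups do not overlap. The number of genes called was 0 with limma, and also 0 with a pseudocount of 0.1, with no filter, with every library required to reach 1 CPM, with quantile normalization, with edgeR and with no fold change cutoff, while DESeq2 called 1155 (1 of the members, Pde1b). With single libraries left out it ranged from 0 to 8025, and the number of members called from 0 to 4. The large counts came without home cage replicate 6 (8025, 60.5% of genes, 2 members, Pde4a and the longer Pde4d entry) or 7 (3722, 27.5%, 4 members, Pde1a, Pde1b, Pde1c and Pde10a), where the lone home cage library is assumed to vary like the fear conditioned ones, and 1 gene was called without fear conditioned replicate 3.

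Of 121 repeats of the members' log2 fold changes with an adjusted p, 107 kept direction and side of the threshold, 7 passed it and 7 changed direction. The 22 scaled to D2 neuron genes or Drd2 had no adjusted p, and 10 kept and 12 changed direction. Each of these scalings takes nearly the same amount from the log2 fold change of every gene. Every entry above 0 turned and every entry below 0 kept its direction, so the 22 are not separate tests of the entries. With single libraries left out, Pde1a ranged from -1.46 to 0.32 (without home cage replicate 7 and 6), Pde10a from -0.31 to 1.80 (without 6 and 7), Pde4a from -0.60 to 0.43, the longer Pde4d entry from -0.89 to 0.17 (both without 6 and 7), Pde4b from -0.065 to 0.52 (without 7 and 6) and the shorter Pde4d entry from -0.11 to 0.13 (without fear conditioned replicate 4 and 2), and with quantile normalization Pde4a was 0.022. Scaled to the D2 neuron genes and to Drd2, the values were -0.12 and -0.19 for Pde1b, -0.59 and -0.66 for Pde2a, -0.85 and -0.93 for Pde4b, -1.05 and -1.12 for the shorter Pde4d entry, -0.17 and -0.24 for Pde7b, and -0.33 and -0.41 for Pde10a. Adjusted p over the tests that gave one ran from 0.0289 to 0.729 for Pde1b. The log2 ratio of the family sum was -0.57 when scaled to the D2 neuron genes, 0.25 without Pde1b, 0.51 to 0.64 with the other scalings, and 0.32 to 0.73 (without home cage replicate 6 and 7) with single libraries left out. Of 22 group means of the shares, 13 moved by more than 1 SD when values were divided by gene length. With 3 and 2 libraries, no group was large enough to look for a single outlying library. The causes were not tested.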
